A study of Mus musculus with 2 samples.

Results

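The genes described here are 30 of the 31053 genes counted in cultured cells of the mouse dorsal root ganglion (DRG), chosen by symbol because they make or control sterols and fatty acids: 18 enzymes of cholesterol synthesis, 8 enzymes of fatty acid synthesis, and 4 genes that regulate the pathway or carry sterols. All 30 had a row in the files and all 30 passed the filter on low counts in every comparison. The cells came from DRGs of 2-week-old Swiss mice, which were dissociated and kept in culture for 3 days, and 2 libraries of this 1 condition, A and B, were made with the 10x droplet method, which counts unique molecular identifiers (UMIs) at the 3′ end of transcripts. Whether the 2 were prepared from different animals or culture wells is not stated, so the spread between them may be technical. No freshly isolated cells are compared here, and the dissociation, the density gradient and the serum-containing medium were common to every cell.

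After cells with under 200 detected genes or over 10% mitochondrial UMIs were left out, 10730 of 10948 barcodes remained, 5066 in A and 5664 in B, with median UMI counts of 5270 in A and 4825.5 in B. The 2 libraries shared 8 barcodes. Clusters were named from marker lists: 811 neurons, 389 fibroblasts, 82 macrophages and 9448 glia, and the glia made up 87.2% of cells in A and 88.8% in B. Median UMIs per cell were 28332 in neurons, 11510 in fibroblasts, 8935 in macrophages and 4723 in glia. Doublets were not removed.

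The glia fell into 5 clusters, drawn with the 30 genes and the other pathway genes named below held out of the clustering. The 3586 satellite-like cells had all 6 satellite glia markers above the 2315 repair-like cells. Levels are in CPM, the UMIs of a gene scaled to the total of its class or cluster, given for A and then B. The lipid carrier gene Apoe, for example, had 9938 and 9598 CPM in satellite-like cells against 1614 and 1613 CPM in repair-like cells. Of the 8 repair Schwann cell markers, 6 were lower in satellite-like cells, such as the neurotrophin receptor gene Ngfr at 42.9 and 37.8 CPM in satellite-like cells against 204 and 206 CPM in repair-like cells, whereas Jun and Artn were not. A cluster of 1702 cells led by S phase genes ("replicating") and a cluster of 996 cells led by G2/M genes ("mitotic") had kept satellite genes. Kept does not mean an equal level. The satellite markers summed to 62.1% of the satellite-like level in replicating and 62% in mitotic glia, against 17% in repair-like glia. Apoe, most of that sum, had 5538 and 5691 CPM in replicating glia and 5043 and 5029 CPM in mitotic glia. Fabp7 and Gja1 were higher in mitotic than in satellite-like glia. A further 849 cycling cells had low satellite genes, with 4 S phase and 6 G2/M genes among their 50 leading genes. They are called cycling glia low in satellite genes. Satellite-like and repair-like glia are called resting only because 0 S phase and 0 G2/M genes were among their 50 leading genes. At resolution 0.3 a cluster of 1172 cells with 23 S phase genes among its leading genes stood apart, and satellite-like cells numbered 2730. Some cells called resting may therefore be in the cycle.

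Cholesterol is built from acetyl-CoA through mevalonate, farnesyl pyrophosphate, squalene and lanosterol, and fatty acids are built from the same acetyl-CoA by carboxylation, chain assembly, elongation and desaturation. Both routes are switched on by the sterol regulatory element-binding proteins (SREBPs), which are released from the endoplasmic reticulum when membrane sterol is low and are held back there by the INSIG proteins when it is high. In nervous tissue, glia are known as producers of cholesterol and other lipids, for their own membranes, for myelin and for neurons.

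Promoters of members were read to show the sequence before the start of genes that move together in the results. RefSeq promoter entries (GRCm38.p6, 250 bases before to 50 after a start) matched 24 of the 30 members, with 30 starts in all. Fdps, Fdft1, Sqle, Scd1, Scd2 and Stard4 had no entry. The box CCAAT, which the factor NF-Y binds, was in 22 of the 30 windows (73.3%) on either strand, against 37.4% of 32851 promoters of all genes. The sterol regulatory element letters TCACNCCAC were in 1 window (3.33%), that of Hmgcs1, against 1.24% of all promoters. The other spelling TCACCCNAC was in 2 (6.67%), Hmgcs1 and Nsdhl, the first of them overlapping the match above, against 0.992%, and the first spelling with an A in front and C at its open base was in 0 windows against 0.0913%. The E-box CACGTG was in 4 windows (13.3%; Dhcr7, Hsd17b7, Insig1 and Sc5d), against 7.15%. The spaced repeat of TGACC, any 5 bases and TAACC, of the kind bound by liver X receptors, was in 2 windows (6.67%; Fasn and Srebf1), against 0.0487%. These matches are descriptions of the letters, not sites shown to be used. The 250 bases before the start are given for 5 members, 5′ to 3′ along the gene, with capitals for the matches: TCACNCCAC and CCAAT in Hmgcs1, CCAAT alone in Lss and Idi1, and the spaced repeat and CCAAT in Fasn and in the Srebf1 start that carries it.
Hmgcs1, chr13:119690101-119690350, + strand: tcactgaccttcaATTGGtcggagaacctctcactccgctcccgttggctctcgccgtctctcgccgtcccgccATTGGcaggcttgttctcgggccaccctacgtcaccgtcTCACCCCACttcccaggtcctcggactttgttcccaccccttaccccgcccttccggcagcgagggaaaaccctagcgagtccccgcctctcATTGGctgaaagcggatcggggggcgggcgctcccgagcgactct
Lss, chr10:76531355-76531604, + strand: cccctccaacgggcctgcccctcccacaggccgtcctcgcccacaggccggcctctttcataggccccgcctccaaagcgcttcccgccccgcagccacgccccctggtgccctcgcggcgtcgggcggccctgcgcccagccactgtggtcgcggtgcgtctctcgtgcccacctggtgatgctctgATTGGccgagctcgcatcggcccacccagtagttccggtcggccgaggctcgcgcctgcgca
Idi1, chr13:8885356-8885605, + strand: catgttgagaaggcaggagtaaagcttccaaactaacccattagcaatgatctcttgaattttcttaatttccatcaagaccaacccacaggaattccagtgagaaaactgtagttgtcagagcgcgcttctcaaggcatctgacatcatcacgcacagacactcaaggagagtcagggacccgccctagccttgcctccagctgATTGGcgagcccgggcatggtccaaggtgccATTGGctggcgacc
Fasn, chr11:120824548-120824797, - strand: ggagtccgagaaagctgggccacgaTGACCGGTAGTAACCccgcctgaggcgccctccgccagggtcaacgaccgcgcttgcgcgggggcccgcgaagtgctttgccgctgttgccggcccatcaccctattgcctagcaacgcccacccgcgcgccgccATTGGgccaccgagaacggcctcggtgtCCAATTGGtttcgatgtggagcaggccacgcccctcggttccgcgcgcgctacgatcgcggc
Srebf1, chr11:60210472-60210721, - strand: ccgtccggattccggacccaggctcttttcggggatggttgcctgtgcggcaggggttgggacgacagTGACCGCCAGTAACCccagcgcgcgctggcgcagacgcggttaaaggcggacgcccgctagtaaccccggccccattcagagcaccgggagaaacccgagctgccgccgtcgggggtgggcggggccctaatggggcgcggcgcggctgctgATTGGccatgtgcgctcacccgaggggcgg
The Hmgcs1 match begins 137 bases before the start, and the spaced repeat begins 225 bases before the start of Fasn and 182 before that of Srebf1. In Fasn, 2 of the 3 CCAAT matches overlap on opposite strands.

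How the sterol and fatty acid arms were spread over the cell classes and glial clusters is shown first by summed levels. The 18 sterol enzymes together had 1497 and 1440 CPM in neurons, 941 and 925 CPM in fibroblasts and 578 and 390 CPM in macrophages, against 1600 and 1533 CPM in all glia. The 8 fatty acid enzymes together had 1123 and 1064 CPM in neurons, 943 and 1040 CPM in fibroblasts and 604 and 518 CPM in macrophages, against 2068 and 2006 CPM in all glia. Neurons thus stood at 93.8% of the glial level for sterol enzymes and at 53.7% for fatty acid enzymes. In A, Scd2, Scd1 and Me1 had 25887, 11016 and 8374 UMIs in glia, against at most 2262 for any other fatty acid enzyme. The fatty acid percentage therefore rests mostly on these genes. Within the glia, the sterol sum was 949 and 915 CPM in cycling glia low in satellite genes, 1765 and 1691 CPM in mitotic glia, 1721 and 1663 CPM in replicating glia, 2044 and 1998 CPM in satellite-like glia and 951 and 934 CPM in repair-like glia. The fatty acid sum was 1014 and 1037 CPM in cycling glia low in satellite genes, 2047 and 2021 CPM in mitotic glia, 2145 and 2110 CPM in replicating glia, 2865 and 2793 CPM in satellite-like glia and 1258 and 1243 CPM in repair-like glia. Satellite-like glia were highest in both arms in both libraries, and both clusters with low satellite genes were lowest. In the sterol sums the cycling glia low in satellite genes were just below repair-like glia, and mitotic glia just above replicating glia, in both libraries. These small gaps were not tested.

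**Figure D1:**
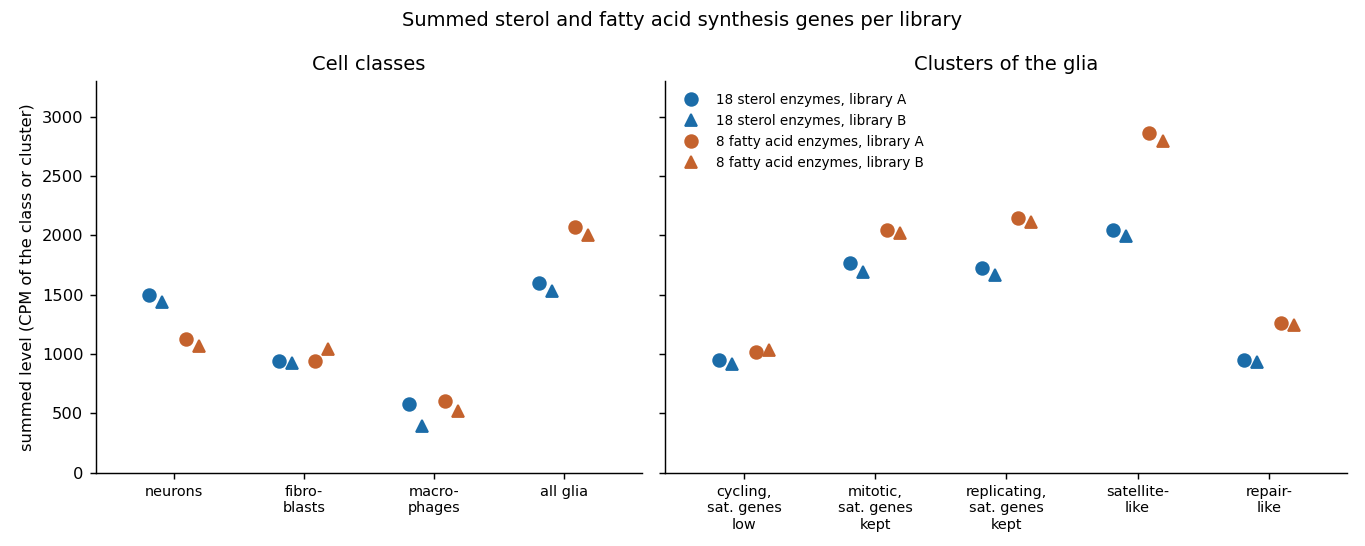
Summed levels (y axis, CPM of the class or cluster) of the 18 sterol enzymes in blue and the 8 fatty acid enzymes in orange, with circles for library A and triangles for library B. Satellite-like glia sit at 2044 and 1998 CPM for sterol enzymes and at 2865 and 2793 CPM for fatty acid enzymes, above every other cluster of the glia.

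Whether resting glia that kept satellite genes differed in these pathways from resting repair-like glia was asked next. In satellite-like against repair-like glia, 29 of the 30 genes were higher and 0 were lower (the UMIs of each cluster were added up within a library and compared with edgeR's quasi-likelihood test, with a Benjamini-Hochberg adjusted p under 0.05 over 11883 genes). Among all genes tested, 20.1% were higher and 19.2% were lower. The sterol enzymes were higher in 17 of 18, with a median log2 fold change of 0.9996, the fatty acid enzymes in 8 of 8, with a median of 0.95, and the regulators in 4 of 4, with a median of 0.68. The median over all genes tested was 0.00.

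At the entry to the sterol pathway, Hmgcs1, which makes HMG-CoA, had 376 and 368 CPM in satellite-like glia against 121 and 130 CPM in repair-like glia, a log2 fold change of 1.53 ± 0.05 (SE; adjusted p = 4.44e-52, edgeR, n = 2 libraries each). Hmgcs1 lies on chr13:119690379-119708260 (GRCm38, + strand). Lss, which closes squalene epoxide into lanosterol, had 24.4 and 24.3 CPM in satellite-like glia against 7.63 and 7.01 CPM in repair-like glia (log2 fold change 1.69 ± 0.17, adjusted p = 1.86e-15, edgeR). Tm7sf2, a sterol reductase that acts after lanosterol, had 15.2 and 14.7 CPM in satellite-like glia against 6.97 and 3.70 CPM in repair-like glia (1.47 ± 0.21, adjusted p = 1.93e-09, edgeR). Of these 3 enzymes, Tm7sf2 varied most between libraries, in repair-like glia, and the clusters did not overlap for any of them. Cyp51, the lanosterol demethylase, had 163 and 166 CPM in satellite-like glia against 63.9 and 63.6 CPM in repair-like glia (1.33 ± 0.06, adjusted p = 3.1e-36, edgeR).

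The other sterol enzymes that passed ranged from 0.63 for Acat2, which joins 2 acetyl-CoA, to 1.19 for Pmvk, the phosphomevalonate kinase. The change thus spanned the route from the first condensation to Dhcr7, the last reductase listed (0.89 ± 0.10). Ebp, the sterol isomerase, was the member that did not pass: it had 98.4 and 96.6 CPM in satellite-like glia against 84.8 and 90.7 CPM in repair-like glia (log2 fold change 0.11 ± 0.06, adjusted p = 0.174, edgeR).

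The fatty acid arm held the largest differences. Acss2, which makes acetyl-CoA from acetate, had 29.3 and 25.7 CPM in satellite-like glia against 6.10 and 5.06 CPM in repair-like glia, a log2 fold change of 2.26 ± 0.17 (adjusted p = 7.84e-22, edgeR). Me1, the malic enzyme that supplies NADPH for lipid synthesis, had 485 and 467 CPM in satellite-like glia against 114 and 120 CPM in repair-like glia (1.99 ± 0.04, adjusted p = 6e-64, edgeR). Both were more than the other members apart between these clusters, with little spread between libraries. Scd1, a desaturase that makes monounsaturated fatty acids, had 683 and 660 CPM in satellite-like glia against 227 and 237 CPM in repair-like glia (1.49 ± 0.04, adjusted p = 4.94e-61, edgeR). Scd2, a second desaturase near it on the same chromosome (Scd1 chr19:44394455-44407879, Scd2 chr19:44293674-44306864, GRCm38), had 1348 and 1322 CPM in satellite-like glia against 732 and 699 CPM in repair-like glia (0.86 ± 0.03). Fasn, the fatty acid synthase, and Elovl6, an elongase, differed by 0.92 ± 0.07 and 0.98 ± 0.08. The smallest differences in this arm were those of Acly, which releases acetyl-CoA from citrate (0.47 ± 0.09), and Acaca, the acetyl-CoA carboxylase (0.53 ± 0.09).

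Among the regulators, Insig1, itself an SREBP target that retains SREBPs, had 58.5 and 59.0 CPM in satellite-like glia against 28.1 and 22.0 CPM in repair-like glia (1.20 ± 0.10, adjusted p = 4.08e-19, edgeR). The genes of the transcription factors differed less: Srebf2, which acts mainly on sterol genes, by 0.66 ± 0.07, and Srebf1, which acts mainly on fatty acid genes, by 0.44 ± 0.05. Of the 4 genes of SREBP processing, 1 was higher and 3 did not pass. The escort protein gene Scap was the one that did (0.36 ± 0.12). Among 9 measured genes of elongation, desaturation and citrate supply, 8 were higher, with a median of 0.59, such as the elongase Elovl5 (1.47 ± 0.07) and the desaturase Fads1 (0.96 ± 0.05). The liver X receptor and sterol export genes were mixed. Of 6, 2 were higher, Mylip, a ubiquitin ligase gene that the receptors switch on (0.53 ± 0.07), and Soat1, which esterifies cholesterol for storage (0.22 ± 0.07), 1 was lower, 2 did not pass, among them the exporter Abcg1 (0.36 ± 0.18), and 1 was not tested. The lower one was Abca1, a cholesterol exporter, which had 180 and 170 CPM in satellite-like glia against 263 and 272 CPM in repair-like glia (-0.65 ± 0.04, adjusted p = 3.43e-25, edgeR). Of the 29 calls, 25 held under every alternative in which the gene was tested, up to 9. At the mitochondrial limit of 5% not every member had the counts to be tested. Neuron markers summed to 329 and 259 CPM in satellite-like glia against 382 and 318 CPM in repair-like glia, and fibroblast markers to 2127 and 2089 CPM in satellite-like glia against 2504 and 2564 CPM in repair-like glia. In A, the collagen genes Col1a2 and Col3a1 had 1208 and 716 CPM in satellite-like glia and 1356 and 586 CPM in repair-like glia. These collagen genes made up most of the fibroblast sum. Dcn, another fibroblast marker, had 1.64 and 2.53 CPM in satellite-like glia and 14.8 and 3.70 CPM in repair-like glia. In fibroblasts Dcn had 4620 and 5333 CPM. The part of RNA from neurons and fibroblasts in the result was not tested.

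**Figure D2:**
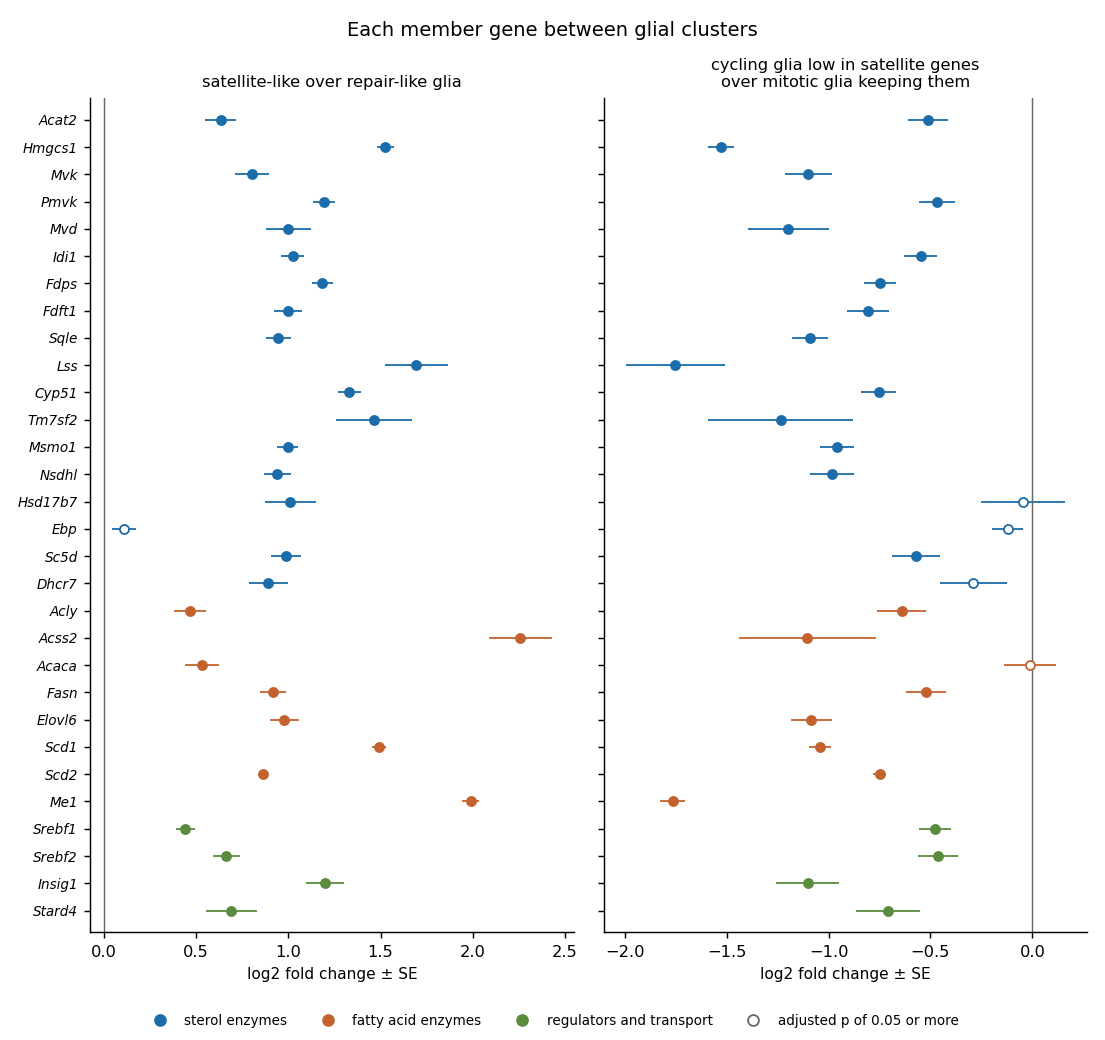
Log2 fold change (x axis) of each of the 30 members with its standard error, for satellite-like over repair-like glia on the left and cycling glia low in satellite genes over mitotic glia keeping them on the right. Filled points passed an adjusted p of 0.05. On the left 29 of 30 lie above 0 and passed, and on the right 26 of 30 lie below 0 and passed.

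The difference could also be seen in single cells once depth was made equal. With every cell thinned to 2000 UMIs, which left out 229 cells, the median satellite-like cell held 3 UMIs of the 18 sterol enzymes and the median repair-like cell 1, in both libraries. No UMI of any sterol enzyme was found in 6.41% and 7.17% of satellite-like cells against 23.4% and 26.2% of repair-like cells. For the fatty acid enzymes the median was 5 UMIs in satellite-like cells and 2 in repair-like cells. Me1 had a UMI in 55.6% and 54.1% of thinned satellite-like cells against 17.4% and 18.7% of repair-like cells. The same share was 14.6% and 9.91% in fibroblasts, whose Me1 level was among the lowest, and free RNA in the droplets can be part of any such share. Across thinned glia, the sterol and fatty acid sums of a cell had a Pearson's r of 0.30 in A (rho 0.31, 4368 cells) and 0.30 in B (rho 0.31, 4900 cells). Within single clusters r lay between 0.08 and 0.20. The cells of a library share its preparation, and their UMIs were fixed at the same number.

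Whether the same genes differed among dividing glia was tested between the cycling glia low in satellite genes and the mitotic glia keeping them. Of the 30 members, 26 were lower in the cycling glia low in satellite genes and 0 were higher, against 19.5% lower and 22.2% higher among all genes tested. Sterol enzymes were lower in 15 of 18 (median log2 fold change -0.78), fatty acid enzymes in 7 of 8 (median -0.90) and regulators in 4 of 4, where the median of all genes was 0.00. Me1 had 96.3 and 100.1 CPM in cycling glia low in satellite genes against 348 and 355 CPM in mitotic glia (-1.77 ± 0.06, adjusted p = 1.75e-46, edgeR). Hmgcs1 had 112 and 108 CPM in cycling glia low in satellite genes against 339 and 327 CPM in mitotic glia (-1.53 ± 0.06, adjusted p = 5.98e-41, edgeR). Lss had 4.47 and 7.32 CPM in cycling glia low in satellite genes against 24.6 and 18.4 CPM in mitotic glia (-1.75 ± 0.24, adjusted p = 1.35e-09, edgeR), from 13 and 25 UMIs in the low cluster, and was at -1.24 without library A and -2.37 without library B. These 3 were also among the members furthest apart between satellite-like and repair-like glia. Insig1 had 16.5 and 22.3 CPM in cycling glia low in satellite genes against 44.7 and 44.1 CPM in mitotic glia (-1.10 ± 0.15, adjusted p = 1.84e-09, edgeR).

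The members that did not pass were Hsd17b7 (-0.04 ± 0.21), Ebp (-0.12 ± 0.07), Dhcr7 (-0.29 ± 0.17) and Acaca (-0.01 ± 0.13). The cycling glia low in satellite genes mix S phase and G2/M genes, so they were also set against the mean of the mitotic and replicating glia, a comparison chosen after seeing the data: Hmgcs1 was then at -1.35 ± 0.06 and Me1 at -1.84 ± 0.05. Among 9 genes of elongation, desaturation and citrate supply, 4 were lower and 5 did not pass. Of the 6 liver X receptor and sterol export genes, 2 were higher, Abca1 (0.49 ± 0.08) and the receptor gene Nr1h2 (0.37 ± 0.15), 2 were lower, Mylip (-0.70 ± 0.11) and Soat1 (-0.45 ± 0.09), 1 did not pass and 1 was not tested. Of the 26 lower members 18 held under every alternative in which the gene was tested, up to 9.

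Proliferation itself was compared by setting the 3 cycling clusters against satellite-like and repair-like glia, each cluster with the same weight. Here 9 members were higher, 9 were lower and 12 did not pass, against 26.8% higher and 29.4% lower among all genes, so that the shares of the members were near those of all genes. Acat2 (0.50 ± 0.06), Stard4, a sterol carrier (0.63 ± 0.09), and Ebp (0.37 ± 0.04) were higher in proliferating glia. These 3 calls held under every alternative in which the gene was tested, up to 10. Acss2 (-0.74 ± 0.16) and Mvd, the mevalonate pyrophosphate decarboxylase (-0.62 ± 0.10), were the furthest below resting glia, but none of the 9 lower calls held under every alternative. With glia clustered at resolution 0.3, 12 sterol enzymes were higher and 0 lower, in place of 6 and 5. The clusters compared were then not the same. The resting side also held a cluster of 933 cells and a cluster of 47 cells led by genes such as Hspa1a and Hmox1, each with the same weight as the others. A cluster of 1172 cells led by S phase genes was added to the cycling side. The sterol count therefore rests on how the glia were clustered and on which clusters were counted as resting.

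Since that comparison averages clusters with kept and low satellite genes, cycling and resting glia were also compared within each kind, in comparisons chosen after seeing the data. In the replicating and mitotic glia that kept satellite genes, against satellite-like glia, 21 members were lower, 4 were higher and 5 did not pass (28.3% lower and 24% higher among all genes). The median log2 fold change was -0.29 for sterol enzymes and -0.31 for fatty acid enzymes, with -0.04 over all genes. Scd1 had 361 and 357 CPM in mitotic glia and 430 and 436 CPM in replicating glia against 683 and 660 CPM in satellite-like glia (-0.76 ± 0.03, adjusted p = 2.82e-46, edgeR). Acss2 had 8.61 and 7.96 CPM in mitotic glia and 14.0 and 11.9 CPM in replicating glia against 29.3 and 25.7 CPM in satellite-like glia (-1.39 ± 0.12, adjusted p = 4.95e-18, edgeR). The shares of UMIs from Scd1 and Acss2 were thus lower in these cycling clusters by more than the spread between libraries. The satellite marker sum was lower there too, at 62.1% of the satellite-like level in replicating and 62% in mitotic glia. The sides compared were therefore not equal in satellite genes. Median UMIs per cell were 5319 in mitotic and 7016.5 in replicating glia against 4139 in satellite-like glia. A lower share therefore need not mean fewer UMIs per cell. In A, Scd1 had 2942 UMIs in 848 replicating, 1133 in 474 mitotic and 5426 in 1683 satellite-like cells. Per cell, Scd1 was thus higher in replicating and lower in mitotic than in satellite-like glia. Acss2 (96, 27 and 233 UMIs) was lower per cell in both cycling clusters. The higher members were Acat2, Mvk, the mevalonate kinase, Ebp and Stard4, by 0.33, 0.20, 0.32 and 0.49. Of these 4 calls 1, that of Ebp, held under all 8 alternatives with a test, as did 8 of the 21 lower calls, with Scd1 but not Acss2 among them. With a mitochondrial limit of 5%, which kept 5.77% of satellite-like cells, 5 sterol enzymes were lower in place of 13.

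In the cycling glia low in satellite genes, against repair-like glia, 4 members were higher, 7 were lower and 19 did not pass (20.3% higher and 17.8% lower among all genes). The median was 0.01 for sterol enzymes and -0.21 for fatty acid enzymes, with -0.02 over all genes. Ebp had 120 and 112 CPM in cycling glia low in satellite genes against 84.8 and 90.7 CPM in repair-like glia (0.44 ± 0.08, adjusted p = 6.97e-07, edgeR). Scd1 was lower (-0.45 ± 0.06), while Hmgcs1 (-0.16 ± 0.07, adjusted p = 0.0748, edgeR) did not pass. Of the 4 higher calls 1, that of Ebp, held under all 8 alternatives with a test, and of the 7 lower calls, that of Scd1 included, 0 did.

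The size of the gap between kept and low satellite genes was compared between resting and cycling glia by an interaction contrast, also chosen after seeing the data: the log2 fold change of satellite-like over repair-like glia minus that of the mitotic and replicating glia over the cycling glia low in satellite genes. It was above 0 for 6 members and below 0 for 0, against 5.83% and 3.77% of all genes. The other 24 did not pass, which does not show that their gaps were equal. The 6 were Hsd17b7 (0.75 ± 0.23), Pmvk (0.60 ± 0.10), Idi1, an isomerase of the mevalonate route (0.45 ± 0.09), Cyp51 (0.38 ± 0.10), Scd1 (0.31 ± 0.06) and Scd2 (0.12 ± 0.04). Each had a wider gap in resting glia, but 0 of the 6 calls held under every alternative, and with cells thinned to 2000 UMIs none of the sterol or fatty acid enzymes passed.

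**Figure D3:**
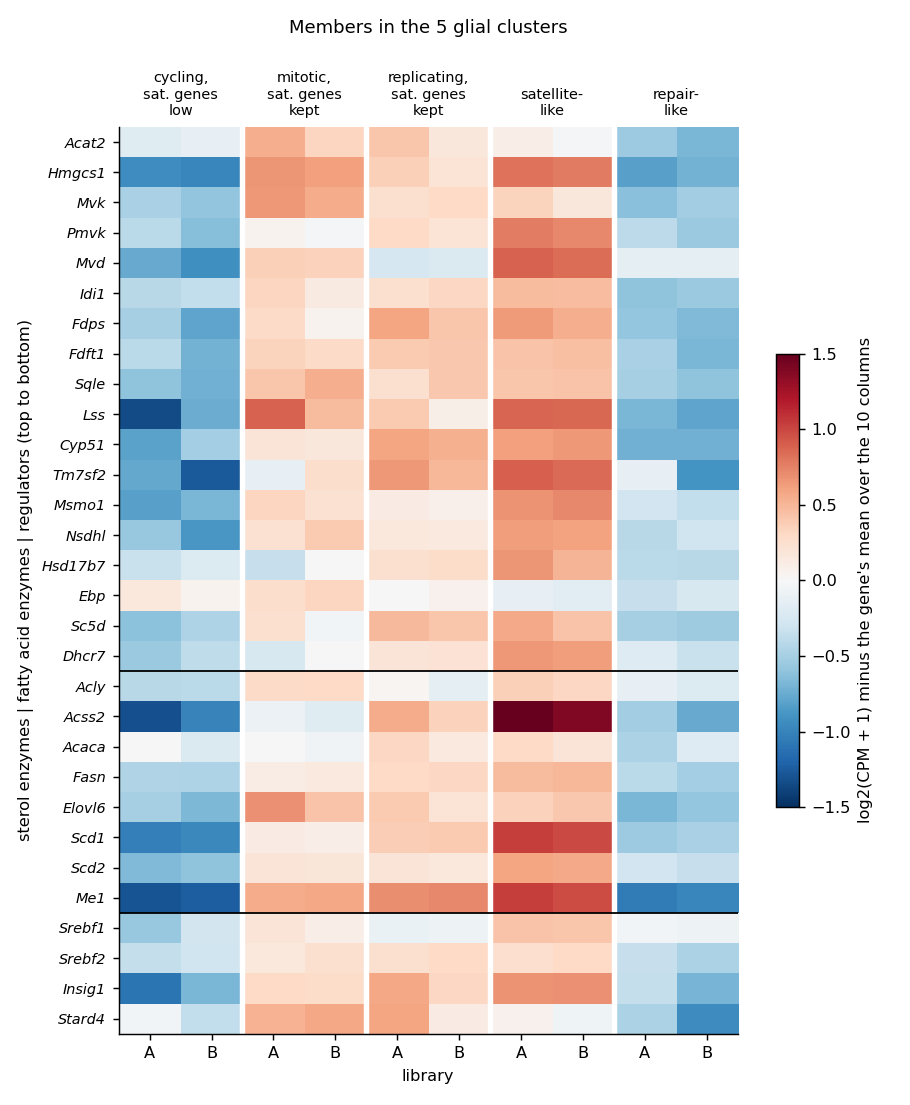
Levels of the 30 members (rows, in pathway order) in the 5 glial clusters and both libraries (columns), as log2(CPM + 1) minus the gene's mean over the 10 columns. The satellite-like columns are red for nearly all members, and the repair-like columns and those of cycling glia low in satellite genes are mostly blue. Ebp varies little on the colour scale of -1.5 to 1.5, though it was higher in proliferating glia (0.37 ± 0.04).

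Neurons were compared with all glia to ask how the pathway is divided between them. The clearest difference was in Acly, which had 209 and 205 CPM in neurons against 48.7 and 46.3 CPM in glia, a log2 fold change of 2.43 ± 0.06 (adjusted p = 2.14e-23, edgeR). At the other end, Srebf1 had 20.4 and 22.9 CPM in neurons against 139 and 140 CPM in glia (-2.39 ± 0.08, adjusted p = 1.14e-20, edgeR). The 2 desaturase genes had lower shares of UMIs in neurons: Scd1 had 144 and 130 CPM in neurons against 433 and 423 CPM in glia (-1.34 ± 0.06), and Scd2 had 454 and 424 CPM in neurons against 1019 and 990 CPM in glia (-0.89 ± 0.05). Me1 had 119 and 121 CPM in neurons against 330 and 320 CPM in glia (-1.14 ± 0.05). No 2 of these values overlapped between the classes, and Elovl6 was lower as well (-0.56 ± 0.07). Median UMIs per cell were 28332 in neurons and 4723 in glia, so a lower share in neurons need not mean fewer UMIs per cell. In A, 436 neurons held 1673 UMIs of Scd1, 5274 of Scd2 and 1378 of Me1. The 4420 glia of A held 11016, 25887 and 8374. Per cell, neurons thus held more UMIs of these genes than glia, and fewer of Srebf1 (237 against 3529 in all).

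In all, 14 members were higher in neurons, 8 were lower and 8 did not pass, against 48.4% higher and 34.9% lower among 13784 genes tested. Fatty acid enzymes were higher in 3 of 8 and lower in 4 of 8, and 1 did not pass. Of the higher fatty acid enzymes, Acly and Acss2 (0.64 ± 0.11) held under every alternative in which the gene was tested. Sterol enzymes were higher in 11 of 18 and lower in 3 of 18. The higher ones that held under every alternative in which the gene was tested, up to 7, were Hsd17b7 (0.99 ± 0.09), Sqle, the squalene epoxidase (0.90 ± 0.06), Fdft1, the squalene synthase (0.82 ± 0.06), Tm7sf2 (0.70 ± 0.12) and Pmvk (0.64 ± 0.06). With thinned cells not every member had the counts to be tested. Sqle, for example, had 162 and 149 CPM in neurons against 102 and 104 CPM in glia. The lower ones were Cyp51, with 52.0 and 56.4 CPM in neurons against 127 and 126 CPM in glia (-0.92 ± 0.07), Nsdhl, a sterol dehydrogenase (-0.89 ± 0.07), and Ebp (-0.77 ± 0.07). Of the 8 enzymes listed after lanosterol, 3 were thus lower, 3 were higher, with Sc5d, a sterol desaturase, at 0.34 ± 0.07 beside Tm7sf2 and Hsd17b7, and 2, Msmo1 and Dhcr7, did not pass. In simulated data the fit of classes called more unchanged genes than its threshold allows, so small class calls such as Mvk (0.21 ± 0.07) and Fasn (0.27 ± 0.06) in neurons are less firm than the counts show.

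The direction of the sterol enzymes as a list rests on the scaling. With trimmed mean of M-values (TMM) factors their median was 0.28, where the median of all genes was 0.23, and by library size alone it was -0.03, where that of all genes was -0.07. Relative to all genes the median stood at 0.05 and 0.04, over single enzymes that ran from -0.92 to 0.99 with TMM, and by library size 5 were higher and 6 lower. The fatty acid enzymes stood at -0.46 and -0.47 relative to all genes. Of all calls, 58.1% were higher with TMM and 47.7% by library size. Glial markers summed to 560 and 568 CPM in neurons against 4117 and 4053 CPM in glia, or 13.8%, and their part in the neuronal levels was not tested.

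**Figure D4:**
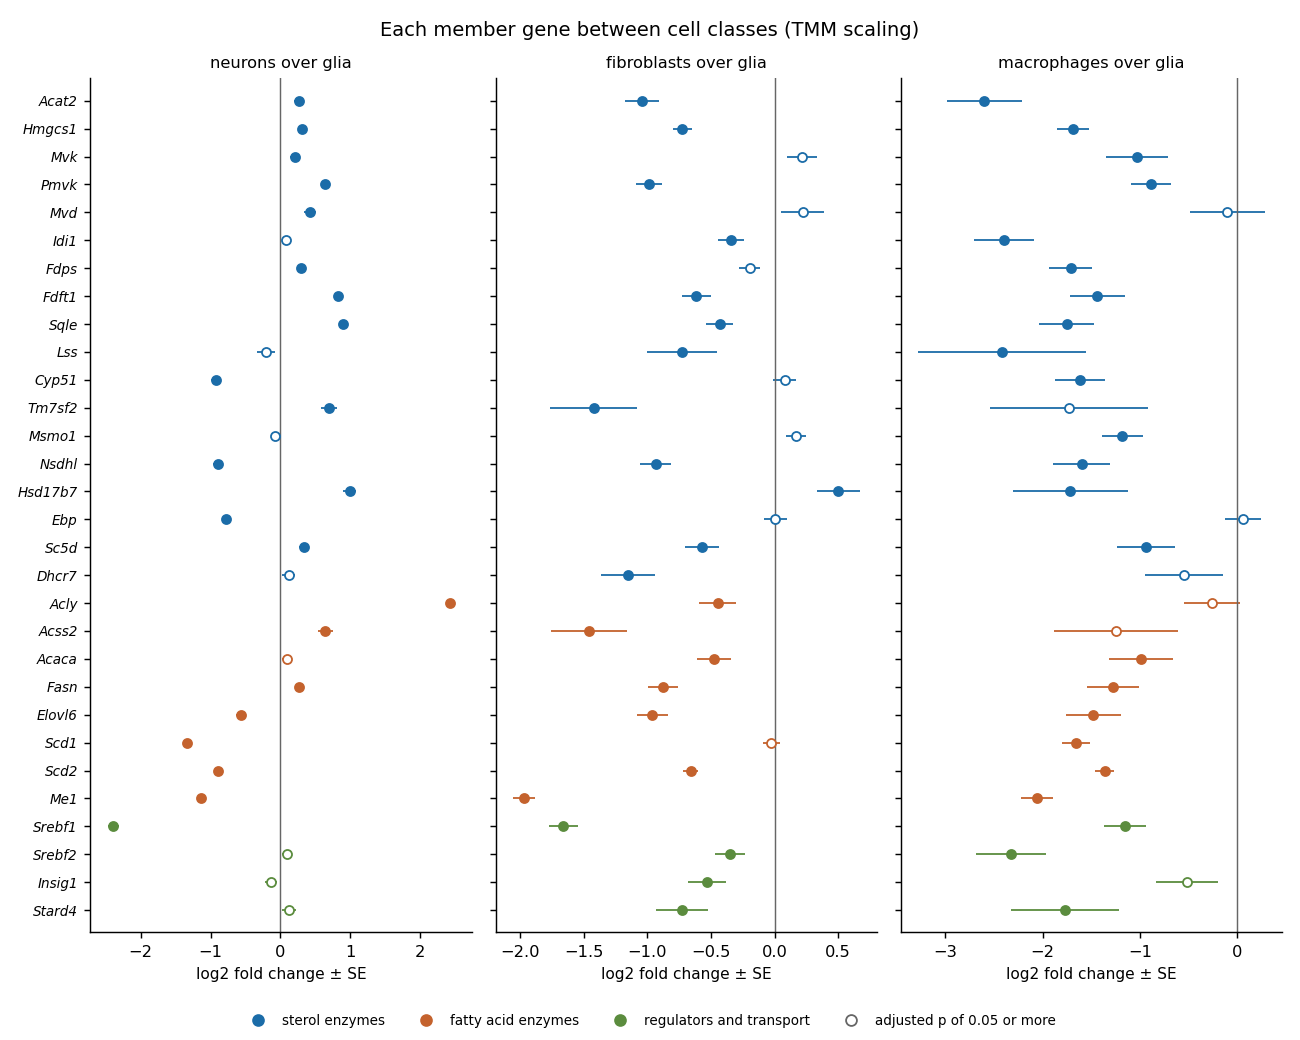
Log2 fold change (x axis) of the 30 members with standard errors in neurons, fibroblasts and macrophages over glia, with TMM scaling. Filled points passed an adjusted p of 0.05. Acly at 2.43 and Srebf1 at -2.39 are the ends of the neuron panel, and 0 members passed above glia in macrophages.

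Fibroblasts had lower levels of most members than glia. Of the 30, 22 were lower, 1 was higher and 7 did not pass, against 24.6% lower and 29.5% higher among all genes. Sterol enzymes were lower in 11 of 18 (median -0.50), fatty acid enzymes in 7 of 8 (median -0.77) and regulators in 4 of 4. Me1 had 67.5 and 59.0 CPM in fibroblasts against 330 and 320 CPM in glia (-1.97 ± 0.08, adjusted p = 2.19e-17, edgeR). Srebf1 had 32.6 and 34.5 CPM in fibroblasts against 139 and 140 CPM in glia (-1.66 ± 0.12, adjusted p = 9.93e-13, edgeR). The library values of both genes were apart between the classes. Among sterol enzymes Tm7sf2 (-1.42 ± 0.34), Dhcr7 (-1.15 ± 0.21) and Acat2 (-1.04 ± 0.13) were lowest against glia. Lss, lower with both libraries (-0.73), was at -0.18 without A and -1.62 without B. Cyp51, Msmo1, a sterol demethylase, and Ebp did not pass. Scd1 did not pass either (-0.02 ± 0.06 with TMM), though its CPM, which are not scaled by TMM, were 305 and 335 in fibroblasts against 433 and 423 in glia. By library size alone Cyp51, Msmo1 and Ebp were lower, and 2 further members that did not pass with TMM were called. The median of all genes moved to -0.38 from 0.01, and 30.7% in place of 54.5% of all calls were higher. Hsd17b7 was higher with TMM (0.50 ± 0.17) and was not called by library size. Glial markers in fibroblasts summed to 154 and 227 CPM, or 4.66% of the glial level.

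Macrophages, with 37 and 45 cells, had the lowest sums of both arms. No member was higher and 23 were lower than in glia, against 15.4% higher and 14.8% lower among all genes. Sterol enzymes were lower in 14 of 18 (median -1.61), fatty acid enzymes in 6 of 8 (median -1.32) and regulators in 3 of 4, where the median of all genes was -0.23 with TMM and -0.63 by library size. Hmgcs1 had 73.7 and 49.3 CPM in macrophages against 268 and 254 CPM in glia (-1.69 ± 0.17, adjusted p = 2.93e-09, edgeR). Srebf2 had 16.6 and 6.72 CPM in macrophages against 76.2 and 76.9 CPM in glia (-2.33 ± 0.36, adjusted p = 9.06e-06, edgeR), from 7 and 3 UMIs in macrophages. Srebf2 was at -3.05 without library A and -1.85 without library B. Leaving out 1 library also moved Idi1, Cyp51, Hsd17b7 and Stard4 by over 1.5 times, to between -4.36 and -2.54 without A or between -1.61 and -1.07 without B. In macrophages of B, Idi1 had 2 UMIs, Hsd17b7 1 and Stard4 1. The 2 macrophage libraries differed more than those of any other class, and Lss had 2 and 0 UMIs in them, so its call moved with the library as well. Ebp did not pass, with 78.4 and 87.4 CPM in macrophages against 105 and 106 CPM in glia.

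The liver X receptor and sterol export genes ran the other way in macrophages. Of 6, 5 were higher: Abca1 had 535 and 518 CPM in macrophages against 153 and 154 CPM in glia (2.18 ± 0.10, adjusted p = 4.02e-16, edgeR), and Abcg1, a second exporter, had 95.1 and 108 CPM in macrophages against 8.42 and 8.02 CPM in glia (4.03 ± 0.24, adjusted p = 9.57e-14, edgeR). Soat1 had 238 and 217 CPM in macrophages against 83.1 and 80.3 CPM in glia. Glial markers summed to 1160 and 688 CPM in macrophages, or 22.6% of the glial level, where the sterol enzymes stood at 30.9% and the fatty acid enzymes at 27.5% of the glial level. Fibroblast markers summed to 1906 and 526 CPM in macrophages. The part of RNA from other cells in the macrophage levels was not tested. With cells thinned, 9 sterol enzymes were lower in place of 14.

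Counts of near copies were set beside those of 2 members, Acat2 and Scd1. Acat3, a near copy beside Acat2, had 6 and 15 UMIs in glia where Acat2 had 1743 and 1598, and Scd3 and Scd4 had 3 to 7 UMIs where Scd1 had 11016 and 11140. Reads that matched several genes are not in these counts, so the counts cannot show how many reads were shared.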

How the data were processed

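Cultured mouse DRG cells were profiled in 2 libraries with the 10x Chromium 3′ kit. Count matrices of UMIs, not normalized, were what the authors deposited, made with Cell Ranger 3.0.2 on mm10 with Ensembl annotation (the count files carry software version 3.1.0), with barcodes already called as cells and replicates not pooled. Their submitters' processing notes name Seurat 3 for later steps, which were not used here. No per-sample column was left unassigned. From these counts, cells that had 200 or more detected genes and no more than 10% of UMIs from mitochondrial genes were kept, scaled to 10000, and clustered on 2000 variable genes in 20 dimensions at resolution 0.18 (Seurat 5.3.0, R 4.3.3). The 30 members and the other pathway genes were held out of the variable genes, of which 24 would otherwise have been used in the glia and 2 over all cells. Clusters were named from marker lists and Seurat's S and G2/M lists. Clusters were still drawn from the same cells that were then compared.

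Counts were summed per library and class or cluster and fitted with edgeR 4.0.16 (TMM, filterByExpr, quasi-likelihood, library as a block), leaving 3 residual degrees of freedom for classes and 4 for glial clusters, with Benjamini-Hochberg adjustment over all genes tested. A library gave cells to every class and cluster, so the libraries pair the sums. The fit was tested on simulated data. There the changed genes were mostly recovered, but the class fit called more unchanged genes than its threshold allows, so class calls of small size are the less certain ones. Total UMIs were 40355401 in A and 38945848 in B, and the depth per gene limits Lss, Tm7sf2 and Acss2 most. Shares and UMIs per cell were taken after thinning to 2000 UMIs (scuttle 1.12.0). Alternatives were DESeq2 1.42.0, library size without TMM, no filter, no block, thinned cells, removal of the 5% of cells with the most UMIs, a mitochondrial limit of 5%, resolution 0.3, members kept among the variable genes, pooled clusters, and each library left out, with the TMM factors of both libraries kept or refitted. A call was counted as held if it kept its direction and side of the threshold in each alternative that tested the gene. Some members had too few counts to be tested with thinned cells in the classes, or at the 5% limit in the glial clusters. Those members were judged on the other alternatives. Named genes are those that passed with the largest change in each direction, up to 6 per comparison, and those high in glia, with all 30 accounted for by count. Members, lists and comparisons were chosen with earlier results of these data known. Gene positions are from GENCODE vM21 and promoters from RefSeq. Figures were drawn with matplotlib 3.10.9.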

Additional observations from a re-analysis of the deposited data

Results flagged for a closer look

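The gap between glia with kept and with low satellite genes was called different between resting and cycling cells for 6 members by the interaction contrast, chosen after seeing the data (edgeR, adjusted p under 0.05). All 6 were above 0, against 5.83% above 0 and 3.77% below 0 among all genes. Of the 6 calls 0 held under every alternative, and with thinned cells none of the sterol or fatty acid enzymes passed. The log2 fold change of satellite-like over repair-like glia minus that of the mitotic and replicating glia over the cycling glia low in satellite genes was 0.75 for Hsd17b7, 0.60 for Pmvk, 0.45 for Idi1, 0.38 for Cyp51, 0.31 for Scd1 and 0.12 for Scd2. No other kind of check singled out a result, since with 2 libraries no sample can be called far from its group.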

How the results depend on the processing

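In satellite-like against repair-like glia and in cycling glia low in satellite genes against mitotic glia, every count of higher and lower enzymes stayed within 1.5 times of its main value under each alternative that was run. Members kept among the variable genes left only 1 G2/M-led cluster, so that alternative could not be run for the second of these or for the comparisons added later. The cause of the changes that follow was not tested, except that the mitochondrial limit of 5% kept only 14.2% of glia and 5.77% of satellite-like cells.

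In neurons against glia, 5 sterol enzymes were higher and 6 lower without TMM, 4 were higher with thinned cells, and 7 were higher and 7 lower at the 5% limit. With thinned cells 1 fatty acid enzyme was higher. The median of the sterol enzymes turned to -0.028 without TMM and -0.055 at the 5% limit. Without TMM, log2 fold changes turned to -0.042 for Acat2, -0.0899 for Mvk, -0.22 for Idi1, -0.0139 for Fdps, -0.21 for Acaca, -0.035 for Fasn and -0.21 for Srebf2. At the 5% limit they turned to -0.31 for Acat2, -0.40 for Mvk, -0.26 for Idi1, -0.42 for Srebf2 and -0.89 for Stard4, and with thinned cells to -0.0303 for Acat2, -0.098 for Fasn and -0.43 for Srebf2. Leaving out either library turned no called member in any comparison fitted with it when the TMM factors of both libraries were kept, a choice made after the refitted values were seen. With TMM refitted on library A alone the median of the sterol enzymes turned to -0.0143, Acat2 to -0.0156, Mvk to -0.1013 and Sc5d to -0.013, and on library B alone Fasn turned to -0.0052. The log2 TMM factor of neurons minus that of glia was -0.31 in A and -0.30 in B with both libraries, and 0.0455 in A and -0.0711 in B after refitting. In fibroblasts, the number of sterol enzymes above glia was 0 without TMM and with thinned cells, 2 without the cells with the most UMIs and 4 at the 5% limit. Fatty acid enzymes were lower in 4 with thinned cells, and 1 was higher at the 5% limit. Without TMM, Cyp51 (-0.31), Msmo1 (-0.22) and Ebp (-0.38) turned, and at the 5% limit Scd1 did (0.59). In macrophages, 9 sterol enzymes were lower with thinned cells.

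In proliferating against resting glia, 3 sterol enzymes were higher with DESeq2, 2 with thinned cells, 3 without the cells with the most UMIs, 3 at the 5% limit and 12 at resolution 0.3. Sterol enzymes were lower in 1 at the 5% limit, 0 at resolution 0.3 and 8 with pooled clusters. Fatty acid enzymes were higher in 2 at the 5% limit, 6 at resolution 0.3 and 2 with members kept among the variable genes, and lower in 0 at resolution 0.3 and 5 with pooled clusters. At resolution 0.3 the resting side also held clusters of 933 and 47 cells. The log2 fold changes at that resolution turned to 1.08 for Hmgcs1, 0.28 for Pmvk, 0.41 for Nsdhl, 0.011 for Dhcr7, 1.73 for Acss2, 0.39 for Fasn, 0.32 for Scd1, 0.11 for Scd2 and 0.063 for Srebf1. At the 5% limit Hmgcs1 (0.20), Acss2 (0.037) and Fasn (0.33) turned, Hmgcs1 did so with members kept (0.084), and Me1 with pooled clusters (-0.10). In cycling glia keeping satellite genes against satellite-like glia, the 5% limit gave 1 sterol enzyme higher, 5 lower and 3 fatty acid enzymes lower, with Fasn at 0.065, and Sqle was at 0.13 at resolution 0.3. In cycling glia low in satellite genes against repair-like glia, 1 sterol enzyme was higher and 1 lower both with thinned cells and at the 5% limit, where 2 fatty acid enzymes were higher and 0 lower and Me1 was at 0.45, and 1 fatty acid enzyme was higher at resolution 0.3. For the interaction, sterol enzymes above 0 were 2 with DESeq2, 0 with thinned cells and 1 at the 5% limit. Fatty acid enzymes above 0 were 1 with DESeq2, without TMM, without the replicate block for library and without the cells with the most UMIs, 0 with thinned cells and 4 at resolution 0.3. Of all interaction calls, 60.7% were above 0 with TMM and 50.2% without. Leaving out the replicate block changed no other count of enzymes past 1.5 times. Over all members and comparisons, 2756 of 3135 alternative values counted as the same. In fits with a test this meant the same call, and a member not called in either fit could change sign. With 1 library left out it meant a shift of at most 2 SE. With TMM refitted, 25 members in neurons moved by more without A and 26 without B, as did 21 in fibroblasts without B.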
